A study of Homo sapiens with 9 samples.

Results

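The genes described here encode the COPI coat, the receptors that load cargo into vesicles between the endoplasmic reticulum (ER) and the Golgi, and the proteins that tether these vesicles and hold the Golgi stack together. There were 36 of them among the 58735 genes of the count table, chosen by gene name, and all 36 were abundant enough to be tested among 15555 genes. They fell into 6 groups by role, with 8 COPI coat subunits, 8 p24 (TMED) proteins, 3 KDEL receptors, 7 other cargo receptors, 5 tethers and Golgi matrix proteins and 5 genes of the ARF cycle. The names were chosen by function, with earlier results of these libraries known.

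COPI is a protein coat that shapes vesicles on Golgi membranes and carries escaped ER proteins and Golgi enzymes back towards the ER. The small GTPases ARF1 and ARF4 recruit the coat once they are loaded with GTP by the exchange factor GBF1, and the ARFGAP proteins trigger GTP hydrolysis and release of the coat. Transmembrane p24 proteins and KDEL receptors are bound by the coat and select what the vesicles carry, while USO1 and the golgins catch vesicles at the Golgi. Prostate luminal cells are secretory and send large amounts of kallikreins through this route.

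The cells were VCaP, an established prostate cancer cell line obtained from ATCC, whose genotype the labels give as WT for the controls and as CDO1 knockdown for the others. All cells, the controls included, were grown with 2 nM DHT, an androgen, and were transfected with a control siRNA (siCtrl), with siCDO1A or with siCDO1C, the last 2 of which target CDO1, a cysteine dioxygenase. Poly(A) RNA was sequenced from 3 libraries per siRNA, 9 in all, which the labels call biological replicates and number as batches 1 to 3. The libraries held from 12061295 to 16073698 counts, so that 3 counts, the smallest signal treated as detected, amounted to 0.187 to 0.249 CPM, that is, counts scaled to the same total in every library. Because this is bulk RNA on a relative scale, fewer expressing cells and less RNA per cell cannot be told apart.

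CDO1 itself was at 13.7 to 14.2 CPM in siCtrl, 2.05 to 3.28 in siCDO1A and 1.1 to 2.81 in siCDO1C, a reduction of 82.1% ± 4.83 (SD, n = 3) and 87.9% ± 6.98 (SD, n = 3). The exact two-sided permutation test gave p = 0.1 for either siRNA, the smallest value that 3 against 3 libraries allow. All 8 prostate luminal and VCaP markers given here, among them KLK3, TMPRSS2 and ERG, were detected above the filter, and their summed level was 4962 to 5184 CPM in siCtrl, 5807 to 6181 in siCDO1A and 5347 to 5636 in siCDO1C, where siCtrl was lowest, siCDO1A highest and no groups overlapped. Of 5 fibroblast markers COL1A2 was at 0 in every library and the summed level was 13.9 to 22.9 CPM over all libraries, most of it LUM. Of 3 immune and 3 endothelial markers CDH5 was at 0 in every library, and the sums did not pass 4.45 and 2.67 CPM. The part of these levels in the results was not tested.

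The library of siCDO1C replicate 2 stood apart. It lay more than 10% outside the range of the other siCDO1C libraries for 19 of the 36 genes, higher for 13 and lower for 6, against 0 to 4 genes in all other libraries except siCDO1A replicate 3, where it was 11. This library also stood apart over all genes. Its median absolute log2 deviation there was 0.195, against 0.094 to 0.143 in the other libraries. The share of all genes that lay more than 10% outside is not given. The comparison of siCDO1C with siCtrl was therefore also made without siCDO1C replicate 2.

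Most of the 36 genes were lower after transfection with either siRNA, by small amounts. With siCDO1A, 15 of the 36 fell and 0 rose at an adjusted p of at most 0.05 (edgeR quasi-likelihood test, Benjamini-Hochberg over all genes tested), which is 41.7% of the genes, while 7.48% of all genes tested fell and 7.37% rose. With siCDO1C, 5 fell (13.9%) and 0 rose, while 2.50% of all genes tested fell and 2.27% rose. DESeq2 also called 15 and 5 genes, all lower, and at an unadjusted p under 0.05 edgeR gave 18 and 16 lower and 0 higher. The shares of all genes tested under these rules are not given.

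With both siRNAs, COPB2, TMED9, TMED10 and USO1 fell, which is 11.1% of the 36 genes, while 1.72% of all genes tested fell and 1.90% rose with both, and 0 of the 36 rose with both. The comparisons share the siCtrl libraries, so the 2 calls of a gene are not independent of each other. With the batch number as a block in the fit, 5 genes fell with siCDO1A (ARF4, ERGIC2, MCFD2, TMED9 and TMED10), 4 with siCDO1C (COPB2, TMED9, TMED10 and USO1) and 2, TMED9 and TMED10, with both. With the same block and with the trends of each library with gene length and GC content removed, a setting chosen after seeing the data, 17 changed with siCDO1A, 13 of them among the 15, 9 with siCDO1C and 8 with both. The shares of all genes tested that changed with the block, or with the trends removed, are not given, so these counts have no such share beside them. Spearman correlations of a library's levels, relative to the mean of each gene, with GC content were -0.24, -0.254 and 0.108 in siCtrl replicates 1 to 3. They were 0.31, 0.355 and -0.189 in siCDO1A and 0.137, -0.0591 and -0.113 in siCDO1C. Thus siCtrl and siCDO1A had opposite signs in each replicate, with replicate 3 reversed. The part of these trends in the results was not tested.

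Single libraries moved these counts. How far they moved the share of all genes tested is given only for siCDO1C replicate 2. Without that library, the share that fell with siCDO1C went from 2.50% to 6.52%. With siCDO1A, 6 genes were changed without siCDO1A replicate 1, 4 without siCDO1A replicate 2, 6 without siCtrl replicate 1 and 4 without siCtrl replicate 2. Without siCDO1A replicate 3 there were 18, among them ARFGAP1, which rose there by 0.19 on the log2 scale (adjusted p = 0.0281). With both siRNAs the count was 0 without siCtrl replicate 1 or without siCtrl replicate 2, 1 without siCDO1A replicate 2 (TMED9) or without siCDO1C replicate 1 (TMED10), 2 without siCtrl replicate 3, and 11 without siCDO1C replicate 2.

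The direction was shared by more genes than passed the test. The log2 fold change was below 0 for 30 of the 36 genes with siCDO1A (83.3%, against 48.1% of all genes tested) and for 32 with siCDO1C (88.9%, against 50.0%), or 33 without siCDO1C replicate 2 (91.7%, against 50.4%). Over the 36 genes the median was -0.147 on the log2 scale for siCDO1A and -0.153 for siCDO1C, and over all genes tested it was 0.010 and -0.000. Summed over the 36 genes, the level was 6761 to 6798 CPM in the siCtrl libraries, 6121 to 6230 in siCDO1A and 5961 to 6157 in siCDO1C, so that the siCtrl libraries lay above all 6 others.

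Library by library, all 3 siCDO1A libraries lay below all 3 siCtrl libraries for 18 of the 36 genes, while 15.4% of all genes tested did so. The count was also 18 for siCDO1C, where the share of all genes was 12.0%, and for 15 genes all 6 siRNA libraries lay below siCtrl, where the share of all genes was 7.35%. Within batches, 18 genes (50.0%) were lower in 3 of 3 batches with siCDO1A, against 20.9% of all genes tested, and 21 (58.3%) with siCDO1C, against 18.4%. TMED4 was the exception on the other side, since all 6 siRNA libraries were above the siCtrl libraries, but by a log2 fold change of only 0.05 with either siRNA (adjusted p = 0.601 and 0.768).

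**Figure D1:**
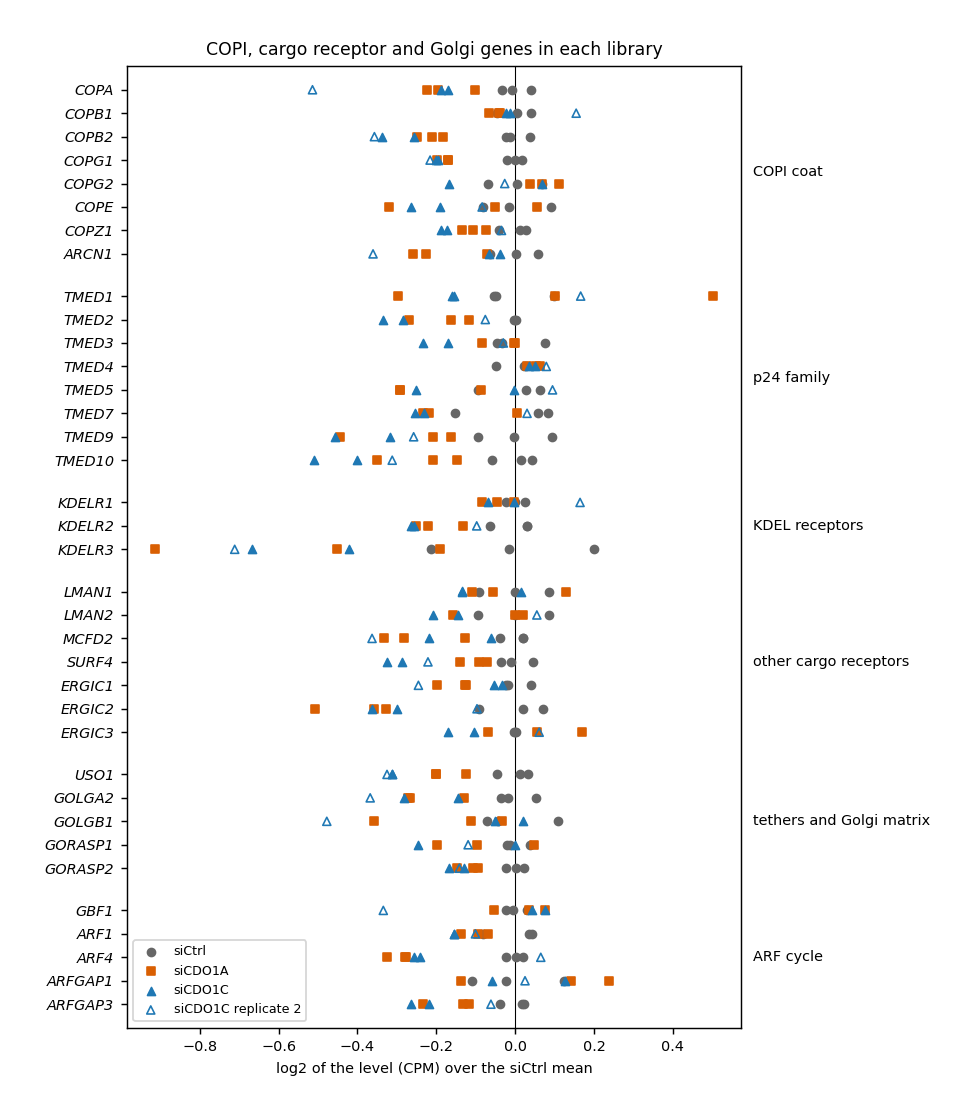
Level of each of the 36 genes in each of the 9 libraries, as log2 of CPM over the mean of the 3 siCtrl libraries, with genes grouped by role and siCDO1C replicate 2 drawn as open triangles. Most siCDO1A squares and siCDO1C triangles lie left of 0, and the open triangles are often far from the other siCDO1C libraries, as for COPA, ARF4 and GBF1.

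The COPI coat is a complex of 7 subunits, all of which were measured, with COPG1 and COPG2 as alternative gamma subunits. COPB2, the beta-prime subunit that recognises dilysine tails of cargo, lies at chr3:139355600-139389732 in hg38. Its level was 239, 248 and 238 CPM in the siCtrl libraries, 209, 203 and 213 in siCDO1A and 191, 189 and 202 in siCDO1C. The 3 groups did not overlap, with siCDO1C lowest. Against siCtrl, siCDO1A gave a log2 fold change of -0.21 ± 0.05 (SE), or 13.8% lower (adjusted p = 0.00809), and siCDO1C one of -0.32 ± 0.07, or 19.7% lower (adjusted p = 0.0133). The call with siCDO1A was lost with the block (adjusted p = 0.0644) and without siCDO1A replicate 2 (0.0508) or siCtrl replicate 2 (0.0635), and the call with siCDO1C without siCDO1C replicate 1 (0.0727) or siCtrl replicate 1, 2 or 3 (0.0918, 0.12 and 0.0604).

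Beside COPB2, the coat genes called with siCDO1A were COPA, the alpha subunit that forms the outer cage with COPB2, with a log2 fold change of -0.17 ± 0.05 (adjusted p = 0.0339), COPG1 with -0.18 ± 0.05 (adjusted p = 0.0239) and ARCN1, the delta subunit, with -0.18 ± 0.06 (adjusted p = 0.0383). With the block none of them passed, their adjusted p being 0.147, 0.132 and 0.136, and with the length and GC trends removed as well COPG1 and ARCN1 passed (0.00579 and 0.0255) and COPA did not (0.0952). With siCDO1C their log2 fold changes were -0.29 (adjusted p = 0.0779), -0.21 (0.0872) and -0.16 (0.373), and without siCDO1C replicate 2 they were -0.18 (0.0138), -0.20 (0.00831) and -0.056 (0.533). With the trends removed, without and with the block, COPA passed with siCDO1C (0.026 and 0.015). COPG1 passed there only without the block (0.027 and 0.0542), and ARCN1 did not pass (0.419 and 0.322). COPG1 had little spread, at 196 to 201 CPM in siCtrl, 173 to 177 in siCDO1A and 171 to 174 in siCDO1C, and its siCtrl libraries lay above all 6 others. Even so, its call with siCDO1A was lost in 8 of the 14 other fits. The calls of COPA and ARCN1 with siCDO1A were lost in 8 and 6 of them. With siCDO1C the adjusted p reached 0.302 for COPA, 0.344 for COPG1 and 0.679 for ARCN1 in those fits.

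COPB1, the beta subunit, had log2 fold changes of -0.05 and 0.03, COPG2 of 0.07 and -0.05, COPE, the epsilon subunit, of -0.10 and -0.19, and COPZ1, the zeta subunit, of -0.11 and -0.14, in the order siCDO1A and siCDO1C, and none of these passed the test. With the length and GC trends removed, without and with the block, COPE passed with siCDO1A at -0.24 (adjusted p = 0.00221 and 0.0024). It also passed there with siCDO1C at -0.26 (0.0183 and 0.0315), while COPB1, COPG2 and COPZ1 did not pass in these fits. Over the 8 coat genes, 4 fell with siCDO1A and 1 with siCDO1C. Their summed level was 1465 to 1498 CPM in siCtrl, 1307 to 1363 in siCDO1A and 1273 to 1342 in siCDO1C.

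Promoter sequences are shown because several genes of the coat and of its ARF cycle hold the same short motif there. The promoters are the RefSeq windows of GRCh38.p14, from 250 bases before to 50 bases after each annotated start, and 29 of the 36 genes had one, while ERGIC1, KDELR2, USO1, TMED4, ARFGAP1, TMED9 and ARF4 had no entry. The motif CCACGTCA, a sequence known to be bound by the unfolded protein response factors XBP1 and ATF6, was found on either strand in the promoters of 6 of these 29 genes (20.7%), namely ARF1, COPA, COPB1, COPB2, GBF1 and KDELR3. It was in 256 of all 35116 promoters (0.729%) and in the promoters of 128 of the 10811 tested genes with an entry (1.18%). The ER stress elements ERSE (CCAAT and CCACG with 9 bases between) and ERSE-II (ATTGG and CCACG with 1 base between), whose second part is the first part of this motif, were in 0 of the 29 and in 0.0769% and 0.0541% of all promoters.

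The 4 sequences shown are of the 3 coat genes with a match and of GBF1, the exchange factor that starts coat assembly. Each is printed along the strand of its gene, with the motif or its reverse complement TGACGTGG in capitals. The stretches are chr1:160343208-160343275 on the minus strand for COPA, chr11:14499822-14499889 on the minus strand for COPB1, chr3:139389631-139389873 on the minus strand for COPB2 and chr10:102245507-102245574 on the plus strand for GBF1.
COPA: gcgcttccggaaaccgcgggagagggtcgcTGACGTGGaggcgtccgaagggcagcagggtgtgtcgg
COPB1: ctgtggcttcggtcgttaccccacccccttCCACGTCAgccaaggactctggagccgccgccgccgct
COPB2: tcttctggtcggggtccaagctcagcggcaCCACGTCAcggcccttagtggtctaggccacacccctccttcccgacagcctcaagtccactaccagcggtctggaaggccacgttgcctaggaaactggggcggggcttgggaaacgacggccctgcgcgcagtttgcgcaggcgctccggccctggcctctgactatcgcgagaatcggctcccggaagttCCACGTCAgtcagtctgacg
GBF1: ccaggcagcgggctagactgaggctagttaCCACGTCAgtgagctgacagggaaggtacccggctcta

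The COPA match begins 6 bases into the transcript and runs against the gene, the COPB1 match begins 48 bases before the start, and the GBF1 match begins 6 bases into the transcript. COPB2 holds the motif at 2 places in this window, from 163 bases before and from 31 bases after the start, and a further annotated start of COPB2 puts the same bases at 196 and 3 before it. Of the 6 genes with the motif, COPA and COPB2 were among the genes that fell with siCDO1A and COPB2 among those that fell with siCDO1C, while COPB1, GBF1, ARF1 and KDELR3 passed in neither comparison. These calls are without removal of the length and GC trends. A match is a description of letters and does not show that a factor binds there.

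The p24 proteins form mixed complexes that cycle between the ER and the Golgi and help to load cargo, including proteins with a lipid anchor. TMED10, at chr14:75131470-75176631, had 278, 272 and 259 CPM in siCtrl, 233, 211 and 243 in siCDO1A and 189, 217 and 204 in siCDO1C. The siCtrl libraries lay above the other 6, while siCDO1A and siCDO1C overlapped. It fell by 15% with siCDO1A, a log2 fold change of -0.23 ± 0.06 (adjusted p = 0.00934), and with siCDO1C the change was -0.41 ± 0.07, or 24.5% lower (adjusted p = 0.00411), and both calls held with the block (0.0491 and 0.00575). The adjusted p rose past the threshold with siCDO1A in 1 fit of all 9 libraries (0.0521) and without siCDO1A replicate 2 (0.0837) or siCtrl replicate 1 or 2 (0.0614 and 0.0538), and with siCDO1C without siCtrl replicate 1 (0.0532).

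TMED9, a p24 protein with a dilysine tail, lies at chr5:177592158-177596124. Its level was 217, 231 and 247 CPM in siCtrl, 201, 207 and 170.2 in siCDO1A and 186, 194 and 169 in siCDO1C. Again siCtrl lay above all others, and in siCDO1A and siCDO1C the libraries of replicate 3 were lowest. Changes on the log2 scale were -0.27 ± 0.07 with siCDO1A, or 16.9% lower (adjusted p = 0.0105), and -0.35 ± 0.08 with siCDO1C, or 21.1% lower (adjusted p = 0.0173), with 0.0404 and 0.0266 under the block. With siCDO1A the adjusted p stayed at or under 0.05 in all 14 other fits, but it was above the stricter threshold of 0.01, and with siCDO1C the call was lost in the fits without siCDO1C replicate 1 or 3 (0.0686 and 0.0691) or siCtrl replicate 1, 2 or 3 (0.0532, 0.105 and 0.119).

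TMED2, which pairs with TMED10, had 540.4 to 542 CPM in siCtrl, 449 to 499 in siCDO1A and 429 to 513 in siCDO1C, where replicate 2 was the highest. It fell with siCDO1A by a log2 fold change of -0.18 ± 0.05 (adjusted p = 0.0192, and 0.0955 with the block), and with siCDO1C the value was -0.24 ± 0.08 (adjusted p = 0.0959, and 1.4e-05 at -0.31 without siCDO1C replicate 2). Its call with siCDO1A was lost in 6 of the 14 other fits. With siCDO1C 2 of the 14 passed, and the adjusted p reached 0.339 in the others. TMED5 fell with siCDO1A (-0.22 ± 0.07, adjusted p = 0.0376, and 0.12 with the block) and was at -0.055 with siCDO1C (adjusted p = 0.807, and 0.251 at -0.13 without siCDO1C replicate 2). Its call with siCDO1A was also lost in 6 of the 14 other fits. The other p24 genes, TMED1, TMED3, TMED4 and TMED7, did not pass with either siRNA, with log2 fold changes from -0.14 to 0.14 with siCDO1A and from -0.15 to 0.05 with siCDO1C. Over the 8 genes, 4 fell with siCDO1A and 2 with siCDO1C, and the summed level was 1791 to 1798 CPM in siCtrl, 1589 to 1646 in siCDO1A and 1491 to 1694 in siCDO1C.

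KDEL receptors capture ER chaperones that end in a KDEL-like signal and return them by COPI vesicles. KDELR3, at chr22:38468062-38483447, was the scarcest of the 36 genes, with 4.52, 5.18 and 6.02 CPM in siCtrl, 4.59, 3.83 and 2.78 in siCDO1A and 3.91, 3.2 and 3.3 in siCDO1C, which rest on 40 to 97 counts a library. The siCDO1C libraries lay below siCtrl, whereas siCDO1A overlapped with it. KDELR3 had the lowest log2 fold changes of the group, -0.51 ± 0.20 and -0.60 ± 0.19, but did not pass the test (adjusted p = 0.0958 and 0.0932).

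KDELR2 fell with siCDO1A by a log2 fold change of -0.20 ± 0.06 (adjusted p = 0.0355, and 0.135 with the block), and its value with siCDO1C was -0.21 ± 0.08 (adjusted p = 0.141, and 0.0053 without siCDO1C replicate 2). The call with siCDO1A was lost in 7 of the 14 other fits. With siCDO1C 1 of the 14 passed, and the adjusted p reached 0.427 in the others. The siCtrl libraries, at 87.7 to 93.7 CPM, were above all 6 others, at 76.3 to 85.7. KDELR1, which was more abundant at 243 to 252 CPM in siCtrl, changed by -0.04 with siCDO1A and 0.03 with siCDO1C on the log2 scale without passing the test (adjusted p = 0.626 and 0.899), and its highest library, at 277 CPM, was siCDO1C replicate 2. With the length and GC trends removed KDELR1 was at -0.125 with siCDO1A. It passed there without the block (adjusted p = 0.0246) but not with it (0.0554), and did not pass with siCDO1C (0.963 and 0.957).

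Among the other cargo receptors, LMAN1 and its partner MCFD2 carry coagulation factors, LMAN2 binds glycoproteins, SURF4 exports many soluble secreted proteins and the ERGIC proteins cycle through the compartment between the ER and the Golgi. ERGIC2, at chr12:29337352-29381189, had 70.2, 72.8 and 65 CPM in siCtrl, 54.1, 48.7 and 55.2 in siCDO1A and 56.3, 64.8 and 53.9 in siCDO1C. No siRNA library reached the lowest siCtrl library, and siCDO1C replicate 2 came within 1 CPM of it. The log2 fold change with siCDO1A was -0.40 ± 0.07, or 24.1% lower (adjusted p = 0.00099, and 0.00755 with the block), the largest fall among the 15 genes called in that comparison. With siCDO1C it was -0.26 ± 0.09 (adjusted p = 0.12), and -0.33 without siCDO1C replicate 2 (adjusted p = 0.00204). It also passed with the length and GC trends removed, without and with the block (0.0269 and 0.024). These were the only 3 of the 14 other fits with siCDO1C to pass, and the adjusted p reached 0.394 in the rest.

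MCFD2 fell with siCDO1A by a log2 fold change of -0.24 ± 0.06 (adjusted p = 0.00963, and 0.0451 with the block), with 155 to 161 CPM in siCtrl and 126 to 146 in siCDO1A. It was at -0.22 ± 0.08 with siCDO1C (adjusted p = 0.158), and at -0.14 without siCDO1C replicate 2 (adjusted p = 0.0965). Its call with siCDO1A was lost in 3 of the 14 other fits. LMAN1 did not pass, at -0.007 and -0.09 (adjusted p = 0.956 and 0.585), so that the partners had different values, a difference that was not tested. ERGIC1 fell with siCDO1A (-0.15 ± 0.05, adjusted p = 0.0453, and 0.179 with the block), a call lost in 9 of the 14 other fits.

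SURF4, at chr9:133361449-133376166, had 395, 401 and 417 CPM in siCtrl, 385, 379.7 and 367 in siCDO1A and 323, 347 and 331 in siCDO1C. The 3 groups did not overlap. It fell with siCDO1C by a log2 fold change of -0.29 ± 0.07, or 17.5% lower (adjusted p = 0.026), and had -0.10 ± 0.05 with siCDO1A (adjusted p = 0.192, and 0.00872 and 0.031 with the length and GC trends removed, without and with the block). The call with siCDO1C was lost with the block (adjusted p = 0.0597) and in the fits without siCDO1C replicate 1 or 3 (0.133 and 0.0694) or siCtrl replicate 1, 2 or 3 (0.125, 0.139 and 0.137). LMAN2 and ERGIC3 passed in neither comparison, with log2 fold changes of -0.04 and -0.10 for LMAN2 and of 0.055 and -0.075 for ERGIC3. With the length and GC trends removed, without and with the block, LMAN2 passed with siCDO1A at -0.14 (adjusted p = 0.0165 and 0.0395). It did not pass with siCDO1C there (0.17 and 0.184), and ERGIC3 passed with neither siRNA.

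USO1, also called p115, is a long coiled-coil protein that tethers vesicles at the Golgi, and GOLGA2, or GM130, anchors it there. USO1, at chr4:75724593-75814286, had 239, 242 and 229 CPM in siCtrl, 206, 206 and 217 in siCDO1A and 190.9, 189 and 190.9 in siCDO1C. The 3 groups did not overlap, and the siCDO1C libraries lay within 2 CPM of each other. On the log2 scale it changed by -0.17 ± 0.05 with siCDO1A, or 11.4% lower (adjusted p = 0.0308), and by -0.32 ± 0.07 with siCDO1C, or 19.7% lower (adjusted p = 0.0117). The call with siCDO1A was lost with the block (adjusted p = 0.146), in 1 fit of all 9 libraries (0.101), with no filter on low counts (0.0555) and in the fits without siCDO1A replicate 1 or 2 (0.119 and 0.122) or siCtrl replicate 1 or 2 (0.122 and 0.147), and that with siCDO1C without siCDO1C replicate 1 (0.0573) or siCtrl replicate 1 or 2 (0.101 and 0.111).

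GOLGA2 fell with siCDO1A by a log2 fold change of -0.22 ± 0.06 (adjusted p = 0.0172, and 0.0816 with the block) and was at -0.27 ± 0.08 with siCDO1C (adjusted p = 0.0597, and 0.0146 without siCDO1C replicate 2). Its call with siCDO1A was lost in 5 of the 14 other fits. With siCDO1C it passed with the length and GC trends removed, without and with the block (0.00877 and 0.0128). Among the 14 other fits with siCDO1C 5 passed, and the adjusted p reached 0.221 in the others. Its siCtrl libraries, at 131 to 139 CPM, lay above all 6 others, at 104 to 123. GOLGB1, or giantin, and the stacking proteins GORASP1 and GORASP2 did not pass, with log2 fold changes of -0.16, -0.08 and -0.12 with siCDO1A and of -0.16, -0.12 and -0.15 with siCDO1C. All 5 genes of this group were below 0 with each siRNA, against 48.1% of all genes tested with siCDO1A and 50.0% with siCDO1C. The share of all genes tested below 0 with both siRNAs is not given.

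ARF4, a small GTPase that recruits COPI together with ARF1, was the gene of the ARF cycle with the clearest change. At chr3:57571363-57598220, it had 298, 293 and 302 CPM in siCtrl, 246, 238 and 246 in siCDO1A and 249, 312 and 252 in siCDO1C. The siCDO1A libraries lay below siCtrl, and so did siCDO1C replicates 1 and 3, while siCDO1C replicate 2 was the highest of all 9. With siCDO1A the log2 fold change was -0.29 ± 0.05, or 18.4% lower (adjusted p = 0.00046, and 0.00924 with the block). With siCDO1C it was -0.14 ± 0.08 (adjusted p = 0.396), and -0.25 without replicate 2 (adjusted p = 0.00051). That was the only 1 of the 14 other fits with siCDO1C to pass, and the adjusted p reached 0.741 in the rest.

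ARF1 had log2 fold changes of -0.10 and -0.14, GBF1 of 0.02 and -0.07, and the GTPase activators ARFGAP1 of 0.085 and 0.025 and ARFGAP3 of -0.16 and -0.19, and none of these passed the test. With the length and GC trends removed, without and with the block, ARF1 passed with siCDO1A at -0.19 (adjusted p = 0.00166 and 0.00319). With siCDO1C it was also at -0.19 there (0.0495 and 0.0775), while GBF1, ARFGAP1 and ARFGAP3 did not pass in these fits. GBF1 was at 149 to 164 CPM in 8 libraries and at 123 in siCDO1C replicate 2. Over the 5 genes, 1 fell with siCDO1A and 0 with siCDO1C by edgeR.

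**Figure D2:**
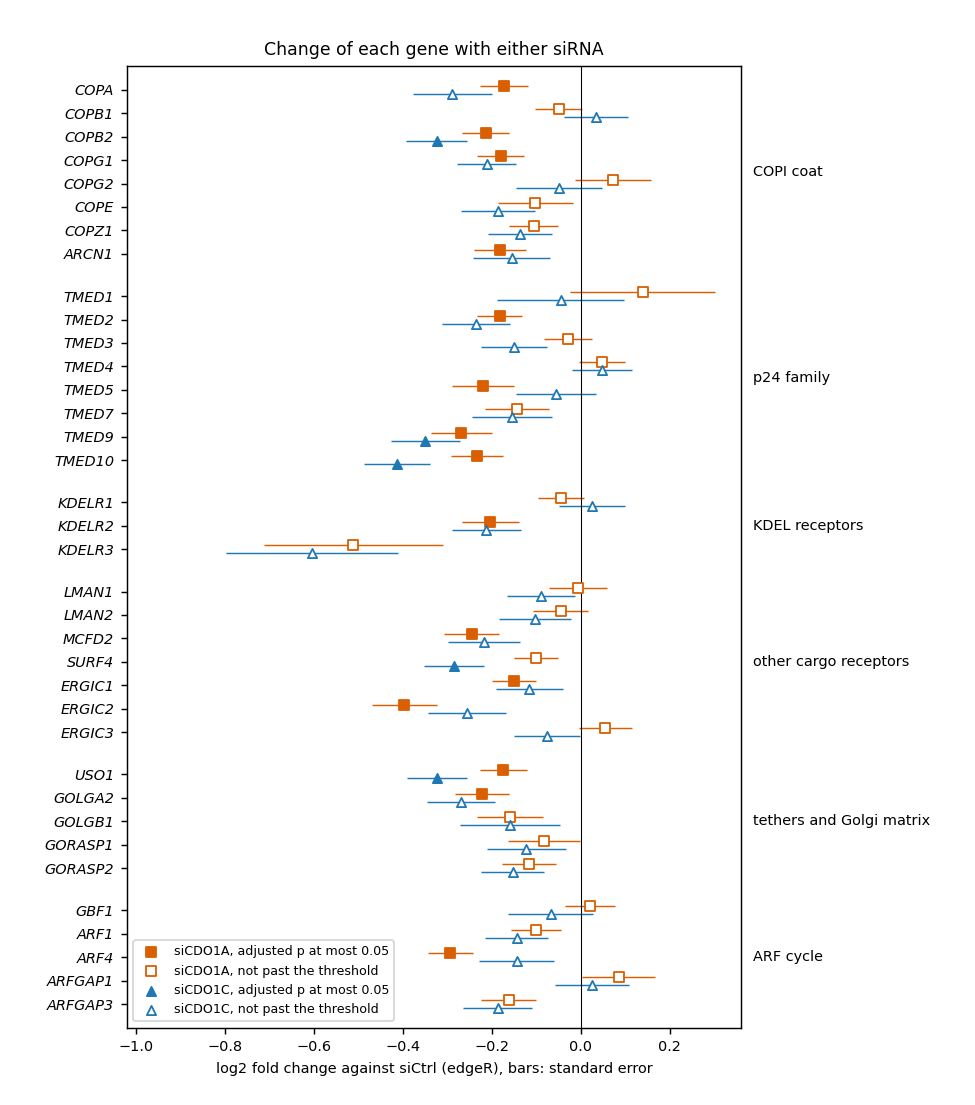
Log2 fold change of each gene against siCtrl by edgeR, with siCDO1A as squares and siCDO1C as triangles, filled where the adjusted p is at most 0.05, and with bars for the standard error. The 15 filled squares and 5 filled triangles all lie left of 0, and the bars of siCDO1C are mostly the wider ones.

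Leaving out siCDO1C replicate 2 raised the number of genes that fell with siCDO1C from 5 to 18 of 36 (50.0%), while the share of all genes tested that fell became 6.52%. All 5 genes were again among the 18, with log2 fold changes of -0.30 for COPB2 (adjusted p = 1.3e-04), -0.39 for TMED9 (1.9e-05), -0.46 for TMED10 (3.2e-07), -0.31 for SURF4 (3.2e-05) and -0.315 for USO1 (6.7e-05). By role, 5 coat genes, 5 p24 genes, 1 KDEL receptor, 3 other cargo receptors, 2 tethers and 2 genes of the ARF cycle fell in that fit. Among those gained were TMED2, ARF4, TMED7 and ARFGAP3, whose level in replicate 2 was more than 10% above the other siCDO1C libraries. That library was set apart partly by its levels of these same 36 genes. Where it was the high library, leaving it out lowers the siCDO1C mean in any case. These gains are therefore not independent support for a fall. For the 6 genes in which replicate 2 was the low library the fall became smaller or turned, from -0.29 to -0.18 for COPA, from -0.16 to -0.056 for ARCN1, from -0.22 to -0.14 for MCFD2, from -0.12 to -0.05 for ERGIC1, from -0.16 to -0.02 for GOLGB1 and from -0.07 to 0.056 for GBF1, and of these COPA passed the test without replicate 2. Without it COPB1 and KDELR1 were at -0.02 and -0.04 and did not pass (adjusted p = 0.832 and 0.677), TMED1 and ERGIC3 were at -0.16 and -0.14 (0.555 and 0.0683), and LMAN2, COPE and COPZ1 passed at -0.18, -0.23 and -0.18 (0.0335, 0.0334 and 0.0214). Leaving out any of the other 5 libraries of this comparison lowered the count, to 1 without siCDO1C replicate 1, 3 without siCDO1C replicate 3, 0 without siCtrl replicate 1, 1 without siCtrl replicate 2 and 2 without siCtrl replicate 3. The shares of all genes tested in those 5 fits are not given.

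**Figure D3:**
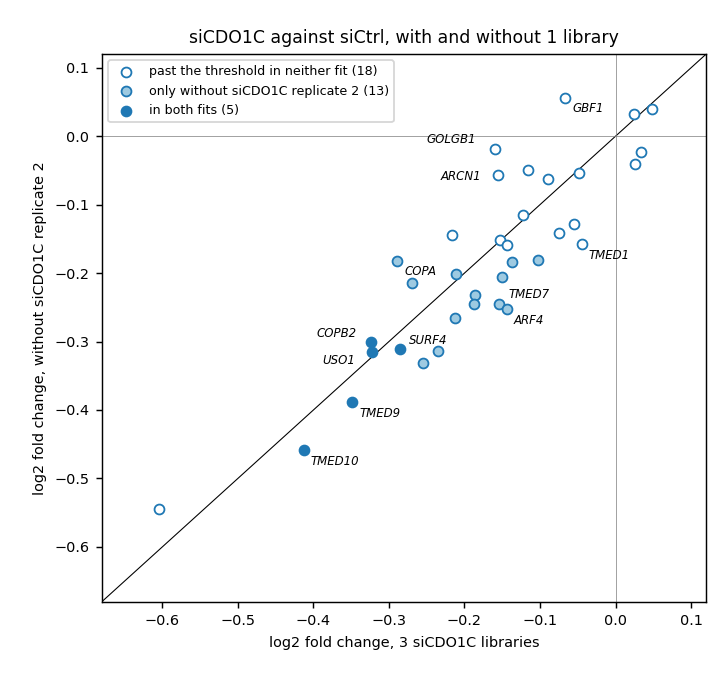
Log2 fold change of the 36 genes with siCDO1C against siCtrl, with all 3 siCDO1C libraries on the horizontal axis and without replicate 2 on the vertical axis; each point is a gene, the line marks equal values and the fill shows in which fit the adjusted p was at most 0.05. The 5 dark points passed in both fits and 13 lighter points only without that library.

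The siRNAs were also compared with each other, since a call with 1 of them alone does not show a difference. Of the 36 genes, 0 passed in siCDO1C against siCDO1A by edgeR and 0 by DESeq2, which gave no adjusted p for 1 of them, while 0.444% of all genes tested passed. At an unadjusted p under 0.05 there was 1, SURF4, with a log2 difference of -0.18 ± 0.08 (adjusted p = 0.588). The differences ran from that value to 0.17 ± 0.10 for TMED5 (adjusted p = 0.776), with a median of -0.043. For TMED10 the difference was -0.18 ± 0.08 (adjusted p = 0.661), for USO1 -0.15 ± 0.08 (adjusted p = 0.717), for ARF4 0.15 ± 0.09 (adjusted p = 0.79), for ERGIC2 0.14 ± 0.10 (adjusted p = 0.846), for COPB2 -0.11 ± 0.08 (adjusted p = 0.878), for TMED9 -0.08 ± 0.09 (adjusted p = 0.95) and for KDELR3 -0.095 ± 0.23 (adjusted p = 0.981). A p that misses the threshold does not show that the siRNAs acted alike.

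To compare levels between genes, CPM was divided by the gene length given in the count table, in kilobases. In siCtrl, TMED2 was highest with 141 ± 0.183 CPM per kilobase (SD, n = 3), above 98.8% of the genes tested. SURF4 with 117 ± 3.4, ARF4 with 115 ± 1.67 and KDELR1 with 110.0 ± 1.93 followed, where SURF4 and ARF4 overlapped between libraries. The lowest were COPG2 with 6.62 ± 0.309, TMED1 with 6.07 ± 0.366 and KDELR3 with 2.72 ± 0.391, the last of which was above 39.0% of the genes tested.

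Within the coat, ARCN1 was highest per length at 69.3 ± 2.88, then COPG1 at 44.9 ± 0.577 and COPB1 at 44.3 ± 1.29, which overlapped, followed by COPZ1 at 42.0 ± 1.03, COPA at 34.4 ± 0.912, COPB2 at 29.6 ± 0.68 and COPE at 22.7 ± 1.39. COPG1 was thus well above its paralogue COPG2. The lengths are those of all annotated exons together, which for TMED3 and ERGIC1 came to 19470 and 14139 bases and lowers their values per kilobase.

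**Figure D4:**
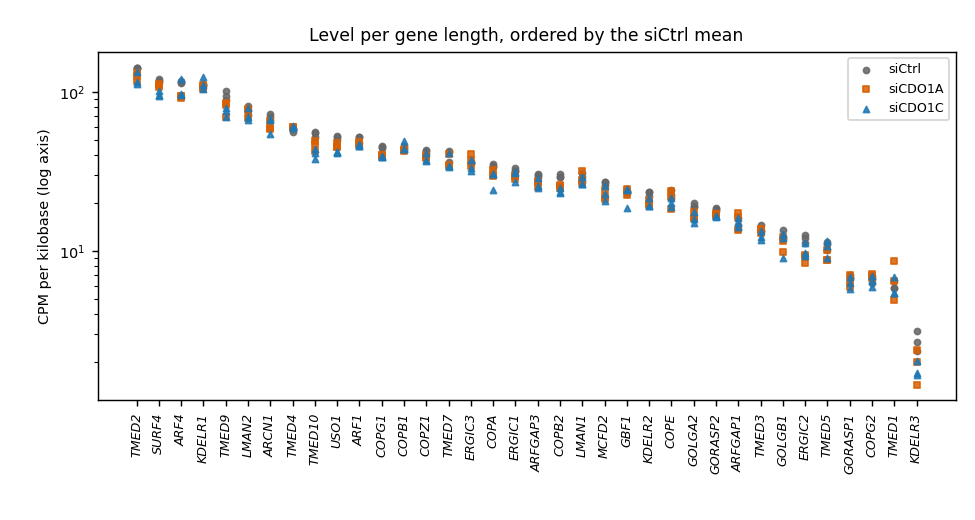
Level of each of the 36 genes in CPM per kilobase of gene length, on a log axis, in each library, ordered by the siCtrl mean. TMED2 and KDELR3 mark the ends of the range, and the spread between groups is small beside the differences between genes.

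A wider list of 57 genes of the same route, of which 56 were tested, held other COPI, ARF and cargo receptor genes, SNARE and fusion proteins, Golgi tethers and other golgins. With siCDO1A 14 of the 56 fell (25%, against 7.48% of all genes tested) and 3 rose (5.36%, against 7.37%). With siCDO1C 4 fell (7.14%, against 2.50%) and 1 rose (1.79%, against 2.27%). The median change of the 56 on the log2 scale was -0.073 for siCDO1A and -0.074 for siCDO1C. With the block the changed genes numbered 5 and 4, and without siCDO1C replicate 2 the number that fell with siCDO1C was 9 (16.1%, against 6.52%). Without 1 library the changed genes with siCDO1A numbered from 6 to 20, with 6 each without siCDO1A replicate 1, siCtrl replicate 1 or siCtrl replicate 2 and 7 without siCDO1A replicate 2. With siCDO1C they numbered 0 without any 1 of the siCtrl libraries, 1 without siCDO1C replicate 1, 3 without siCDO1C replicate 3 and 10 without siCDO1C replicate 2. Beyond the 6.52% above, no share of all genes tested is given for the block or for the fits without 1 library.

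With both siRNAs, GOLPH3L, a relative of the Golgi coat adaptor GOLPH3, COG3, a subunit of the COG tether, and the golgin GOLGA5 fell, and the golgin GOLGA4 of the trans-Golgi rose. That is 5.36% of the 56 genes lower, against 1.72% of all genes tested, and 1.79% higher, against 1.90%, so that the share that rose was near that of all genes. GOLGA4 had 144, 145 and 132 CPM in siCtrl, 164, 169 and 192 in siCDO1A and 175, 159 and 191 in siCDO1C, so that siCtrl lay below all others. Its log2 fold change was 0.32 ± 0.07 (adjusted p = 0.00184) and 0.31 ± 0.08 (adjusted p = 0.0405, and 0.0592 with the block). GOLPH3L had -0.39 ± 0.08 (adjusted p = 0.00177) and -0.40 ± 0.09 (adjusted p = 0.0185), COG3 -0.28 ± 0.07 (adjusted p = 0.00787) and -0.36 ± 0.08 (adjusted p = 0.0134), and GOLGA5 -0.29 ± 0.08 (adjusted p = 0.0132, and 0.0556 with the block) and -0.41 ± 0.09 (adjusted p = 0.0116).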

How the data were processed

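RNA-seq of 9 VCaP libraries was analysed from the count table. It holds raw counts that the authors deposited, whole numbers of reads per gene from directional libraries, made with featureCounts and not normalized. The submitters' processing notes name CASAVA, HISAT2 2.0.5 and hg38. Strand and multiple-mapping settings are not given in the sources used here. 3 columns match no sample and were not used.

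Genes were kept by filterByExpr over the 9 libraries (minimum count 10), scaled by TMM and tested with the quasi-likelihood test of edgeR 4.0.16 in R 4.3.3, with robust dispersions and Benjamini-Hochberg adjustment over 15555 genes, on the 6 libraries compared. CPM values are after TMM. An adjusted p of at most 0.05 counted as changed. The alternatives were DESeq2 1.42.0, RLE scaling, a joint fit of the 9 libraries, the batch block, a filter of 10 counts per library or none, an adjusted p of 0.01, leaving out each library and removing length and GC trends. The fit was tested on simulated data. Floors cover counting error only.

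The labels give a batch number equal to the replicate number, and this number was taken to pair the libraries. Deviations from group means, over 11337 genes of at least 5 CPM, correlated between same-numbered libraries at -0.202, -0.0901 and -0.376 for siCDO1A and siCtrl, at 0.0527, -0.00729 and -0.277 for siCDO1C and siCtrl and at -0.133, 0.127 and 0.378 for siCDO1C and siCDO1A. The batch number was used as a block in an alternative fit.

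The 36 genes and all lists were chosen with earlier results of these data known. Values in every library are given for genes changed with both siRNAs or between the siRNAs and for the gene with the largest mean change of each role. SURF4, GOLGA4 and the libraries or ranges of other genes are given beyond this rule, chosen after their values were seen. Of the wider list, genes changed with both siRNAs are named. Promoters are from RefSeq (GRCh38.p14). Protein sequences were not used here. Some markers of the cell type lists are not reported here.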

Additional observations from a re-analysis of the deposited data

How the results depend on the processing

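With 3 libraries a group, single libraries decide many calls, while the direction of the medians did not change under any setting run. With siCDO1A, 4 of the 36 genes were changed in 1 fit of all 9 libraries, 5 with the replicate block, 20 with length and GC trends removed, 17 with the trends removed and the block, 5 at an adjusted p of 0.01 (COPB2, TMED10, MCFD2, ERGIC2 and ARF4) and from 4 to 18 when 1 library was left out (6 without siCDO1A replicate 1, 4 without siCDO1A replicate 2, 6 without siCtrl replicate 1 and 4 without siCtrl replicate 2). Their median log2 fold change was -0.131 with the trends removed, with or without the block, and from -0.154 to -0.127 without 1 library. With siCDO1C, 12 were changed with the trends removed, 9 with the trends removed and the block, 1 at an adjusted p of 0.01 and from 0 to 18 without 1 library (18 without siCDO1C replicate 2, 0 without siCtrl replicate 1, 1 without siCDO1C replicate 1 or siCtrl replicate 2, 2 without siCtrl replicate 3 and 3 without siCDO1C replicate 3), the median then being from -0.182 to -0.141. With both siRNAs there were 2 in 1 fit of all 9 libraries, 12 with the trends removed, 8 with the trends removed and the block, 2 with the replicate block, 1 at an adjusted p of 0.01 and from 0 to 11 without 1 library (0 without siCtrl replicate 1 or 2, 11 without siCDO1C replicate 2, 1 without siCDO1A replicate 2 or siCDO1C replicate 1 and 2 without siCtrl replicate 3). Between the siRNAs the count was 0 throughout. Apart from the fit without siCDO1C replicate 2, the share of all genes tested is not given for these settings. The removal of length and GC trends was chosen after seeing the data, and the cause of these changes was not tested. The CDO1 reduction was from 80.5% to 84.9% and from 85.8% to 91.9% without 1 library. The wider list gave 7 changed genes with siCDO1A in 1 fit of all 9 libraries.

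No called value changed sign. Among values that were not called, the sign changed as follows. With the trends removed, without and with the block, the values were for siCDO1A TMED1 (-0.015 and -0.040), TMED3 (0.029 in both), LMAN1 (0.035 and 0.036) and ARFGAP1 (-0.013 and -0.016), and for siCDO1C KDELR1 (-0.007 and -0.010) and ARFGAP1 (-0.026 in both). Without 1 library the log2 fold change ran, for siCDO1A, from -0.094 to 0.327 for TMED1, from -0.052 to 0.008 for TMED3, from -0.082 to 0.041 for LMAN1, from -0.09 to 0.008 for LMAN2, from -0.007 to 0.114 for ERGIC3 and from -0.008 to 0.056 for GBF1. For siCDO1C it ran from -0.023 to 0.068 for COPB1, from -0.106 to 0.019 for COPG2, from -0.158 to 0.023 for TMED1, from -0.128 to 0.046 for TMED5, from -0.04 to 0.083 for KDELR1, from -0.14 to 0.056 for GBF1 and from -0.02 to 0.091 for ARFGAP1. For KDELR3 between the siRNAs it ran from -0.260 to 0.071.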
